A study of Homo sapiens with 8 samples.

Results

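The genes of the ubiquitin-specific proteases (USPs), the largest family of deubiquitinating enzymes in human cells, were followed through inhibition of the spliceosome and through pull-down of double-stranded RNA. They were taken by symbol, as USP and a number with an optional X or L, without USP18, which acts on ISG15, and USP39, a splicing factor. The files list 45 such genes among 15902, and 35 of them were kept because they had at least 1 spliced read per 1000000 reads of the library (RPM) in at least 2 libraries, of 8461 genes kept and tested in all. USP2, USP6, USP29, USP37, USP38, USP44, USP45, USP49, USP50 and USP51 were not kept. Just outside the threshold were USP38 and USP45, with 1 library at or above 1 RPM each (1.53 and 1.26 RPM), and just inside was USP33 with 3 such libraries, both of the input with vehicle and 1 of J2 RNA with the drug. USP43 reached 1 RPM only in the 4 libraries with vehicle and USP46 only in the 4 with the drug, so both were kept through the side where they are high. USP1 and USP28 reached 1 RPM only in libraries of the input with vehicle or of J2 RNA with the drug. The drug effects of USP43 and USP46, and all comparisons of USP33 with the input with vehicle, are descriptions. So is the difference between the drug effects in J2 RNA and input for USP1, USP28 and USP33. The counts over the 35 genes include these genes. The cells were SUM159, an established human line of triple-negative breast cancer, so every value comes from 1 line. For 12 hours they received H3B-8800, an inhibitor of the spliceosome whose target is the SF3b complex, or its vehicle DMSO. Polyadenylated RNA was sequenced from each treatment, both as input and as RNA pulled down by J2, which recognises RNA duplexes. This makes 4 groups of 2 biological replicates, the input without and with the drug and the J2 RNA without and with it, and an immunoprecipitation with a control antibody was not analysed here.

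USPs are cysteine proteases that cut ubiquitin from proteins or from ubiquitin chains. They can spare a substrate from the proteasome, reset a signalling complex or erase a histone mark, and many work only with a partner protein. SF3b holds the U2 snRNP at the branch point of an intron, and an intron that is not removed leaves its sequence in the RNA. Reads inside an intron (intronic reads) and reads spliced across it (spliced reads) were therefore followed separately for each gene. A gene's intronic share is the percent of intronic reads among both kinds. In these bulk samples fewer cells and less RNA per cell cannot be told apart.

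The libraries held 47000000 to 57000000 reads. Over all listed genes, intronic reads were 3.63% to 3.98% of reads with vehicle and 10.3% to 13.0% with H3B-8800. Of 10 genes typical of mesenchymal-like lines, such as VIM and AXL, 9 were at or above 1 RPM in every library. Of 10 luminal genes, 3 were at or above 1 RPM in every library, KRT8, KRT18 and GATA3. The luminal list summed to 228 and 251 RPM in the input with vehicle. The luminal receptors ESR1 and PGR had no spliced read in any library, and none of 7 listed immune genes reached 1 RPM in every library. The mesenchymal genes summed to 3032 and 3092 RPM in the input with vehicle and to 3504 and 3877 RPM with H3B-8800; the part of such shifts in the results was not tested. Replicates were closest in the input with vehicle. Between the J2 libraries with H3B-8800, the second was higher than the first for 27 of the 35 USP genes, by a median log2 ratio of 0.46, and for 15 of them by more than 0.5. Over all 8461 genes that median was 0.07.

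In the input, H3B-8800 lowered spliced reads of most USP genes and raised those of a few. By edgeR's quasi-likelihood test at an adjusted p under 0.05, 21 of 35 fell and 8 rose, and 6 did not pass. Over all tested genes 48.7% fell and 21.8% rose. The median log2 fold change was -1.30 over the USP genes and -0.38 over all genes. Median-of-ratios scaling brings the median of all genes to 0.03, and 19 USP genes were then called lower and 9 higher.

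**Figure D1:**
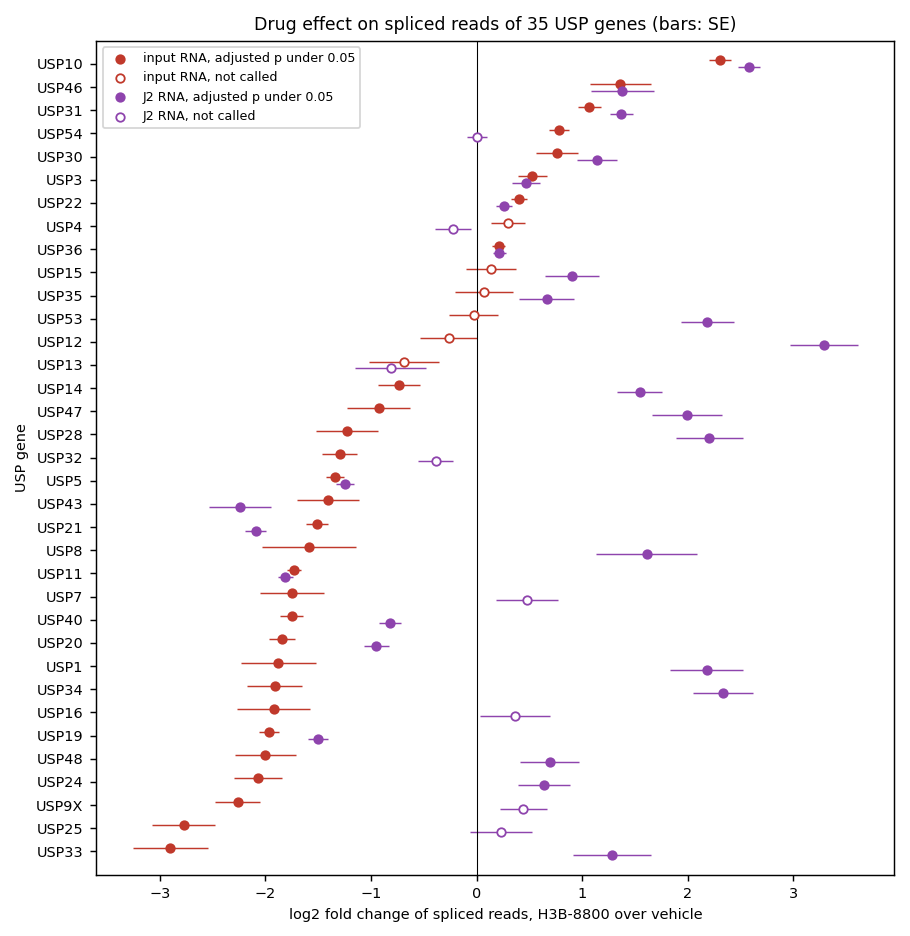
Log2 fold change of spliced reads with H3B-8800 over vehicle (x axis) for each of 35 USP genes (y axis, ordered by the input value), in input RNA (red) and J2 RNA (purple). Bars are standard errors and filled points passed an adjusted p of 0.05; USP10 stands at the top with 2.31 in the input and 2.58 in J2 RNA, while USP33 at the bottom went from -2.90 in the input to 1.28 in J2 RNA.

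USP10, which keeps cytoplasmic p53 stable and binds the stress granule protein G3BP1, had the largest rise. Its spliced reads were 9.35 and 8.94 RPM with vehicle and 43.4 and 47.2 RPM with H3B-8800. Both treated libraries lay far above both controls, a log2 fold change of 2.31 (SE 0.10, adjusted p = 5.86e-08), or 4.95-fold. USP31 had 5.58 and 5.43 RPM with vehicle and 10.98 and 12.1 RPM with the drug (log2 1.07, SE 0.11, adjusted p = 1.80e-05). USP54, a poorly characterised member, went from 10.1 and 10.2 RPM to 16.4 and 18.5 RPM (log2 0.78, SE 0.09, adjusted p = 5.30e-05). In these genes the groups did not overlap. That was a condition for giving library values of members picked by size of change, here and below, so it adds no support to the tests.

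Smaller rises were called for USP30, USP3 and USP22. USP30, the deubiquitinase of the outer mitochondrial membrane that opposes mitophagy, had 2.19 and 2.10 RPM with vehicle and 3.09 and 4.17 RPM with the drug (log2 0.76, SE 0.20, adjusted p = 0.00662). USP3, which removes ubiquitin from histones H2A and H2B, had 9.96 and 7.96 RPM against 11.9 and 14 RPM (log2 0.53, SE 0.13, adjusted p = 0.00563). Neither group of libraries overlapped the other in either gene, but both calls were lost without the second drug library (adjusted p = 0.0599 for USP30 and 0.0545 for USP3). For USP3 the call was also lost without the second vehicle library (adjusted p = 0.0557). USP22, the deubiquitinase of the SAGA coactivator, had 55.2 and 57.0 RPM against 68.0 and 80.0 RPM (log2 0.40, SE 0.08, adjusted p = 0.00108). The other members called higher were USP46, with 0.583 and 0.569 RPM against 1.28 and 1.69 RPM and kept only through its libraries with the drug, and the nucleolar USP36, with a log2 fold change of 0.21.

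The deepest fall was that of USP33, a Golgi and endosomal enzyme that acts on the beta-2 adrenergic receptor. It had 4.92 and 4.71 RPM with vehicle and 0.787 and 0.5 RPM with H3B-8800 (log2 -2.90, SE 0.36, adjusted p = 5.96e-05), a 7.46-fold lower level, and it would not have been kept without the libraries of the input with vehicle. USP25, which trims ubiquitin in the endoplasmic reticulum pathway and in cytokine signalling, had 6.33 and 6.51 RPM against 0.830 and 1.04 RPM (log2 -2.77, SE 0.30, adjusted p = 2.14e-05). USP9X, an X-linked enzyme with many substrates, among them SMAD4 and MCL1, had 28.7 and 28.9 RPM against 6.13 and 5.88 RPM (log2 -2.26, SE 0.21, adjusted p = 9.33e-06). Each of these had its treated libraries well below its controls.

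USP24, USP48 and USP19 followed. USP24 had 6.46 and 6.31 RPM with vehicle and 1.68 and 1.35 RPM with the drug (log2 -2.07, SE 0.23, adjusted p = 2.76e-05). USP48 had 2.88 and 2.78 RPM against 0.660 and 0.750 RPM (log2 -2.0, SE 0.29, adjusted p = 1.65e-04). USP19, which is anchored in the endoplasmic reticulum by 1 of its isoforms, had 25.8 and 27.0 RPM against 6.57 and 6.96 RPM (log2 -1.96, SE 0.10, adjusted p = 1.09e-07). USP7, the deubiquitinase of MDM2 and p53, had 12.5 and 12.4 RPM against 3.34 and 4.06 RPM (log2 -1.75, SE 0.30, adjusted p = 5.79e-04), and its groups did not overlap either.

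The counts by role stand beside 48.7% lower and 21.8% higher over all tested genes, and 60% and 22.9% over the 35 USP genes. By role, 6 of 7 enzymes of membranes, endosomes, mitochondria and the endoplasmic reticulum fell and USP30 rose. Among 8 enzymes of DNA damage, replication and p53, 6 fell, USP10 rose and USP13 did not pass. Among 5 enzymes of chromatin, USP22, USP3 and USP36 rose and USP16 and USP21 fell, the last from 16.4 and 16.7 RPM to 5.26 and 6.31 RPM. Of 4 enzymes of TGF-beta, Wnt and growth signalling, USP9X and USP34 fell and USP4 and USP15 did not pass. USP5, which recycles free ubiquitin chains, and USP14, which works on the proteasome, both fell (log2 -1.34 and -0.73). These groups are small, and a difference between them was not tested.

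**Figure D2:**
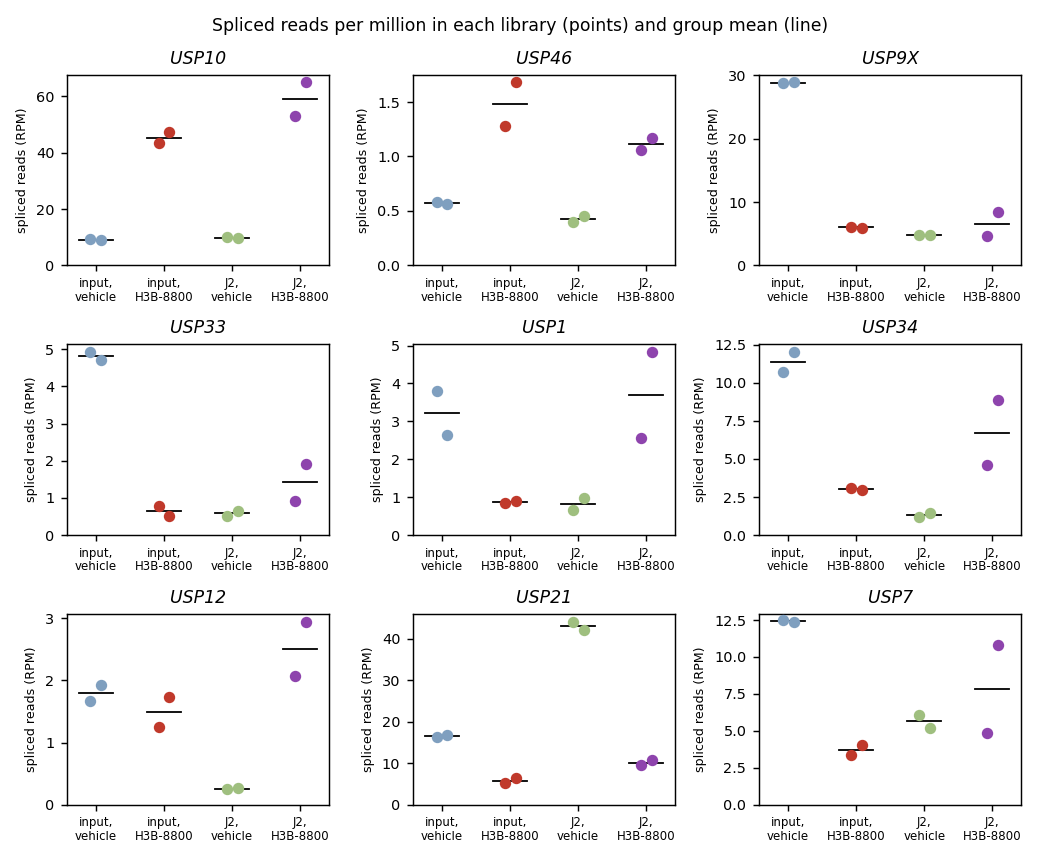
Spliced reads in RPM (y axis, from 0, own scale per gene) in each of 8 libraries for 9 USP genes, by group on the x axis; points are libraries and lines are group means. USP10 is high in both groups with H3B-8800, USP9X and USP33 are high only in the input with vehicle among the 4 groups, and USP21 is highest in J2 RNA with vehicle at 44.1 and 42.1 RPM.

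Intronic reads moved the other way. Summed over the 35 genes, spliced reads were 443 ± 0.218 RPM (SD, n = 2) in the input with vehicle and 337 ± 28 RPM (SD, n = 2) with H3B-8800. Intronic reads were 12.4 ± 1.63 RPM (SD, n = 2) and 58.6 ± 0.708 RPM (SD, n = 2). The intronic share was thus 2.72% ± 0.350 (SD, n = 2) with vehicle and 14.9% ± 1.20 (SD, n = 2) with the drug, against 3.53% ± 0.0216 and 9.85% ± 0.0717 over all tested genes. With 2 libraries a group an exact permutation test cannot go below p = 0.333, so these sums have no test of their own. USP1 weighs on the drug sums, since it gave 620 and 637 intronic reads with the drug. USP31 weighs on the intronic sums of both groups through a single intron, described below.

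Per gene, the ratio of intronic to spliced reads was tested with limma on a log2 scale after adding 1 read to each. In the input it rose for 25 of 35 USP genes and fell for none, with 10 not called. Over all genes 57.6% rose and 2.06% fell. The median log2 change was 2.33 over the USP genes and 1.68 over all genes. Intronic reads alone, tested with edgeR, were higher for 20 USP genes and lower for none, against 49.6% and 3.85% of all genes. That count depends on the scaling, since TMM and median-of-ratios factors each left 8 higher, and the ratio was higher for 10 genes and lower for 2 when each kind of read was scaled by median-of-ratios. The all-gene median of the ratio was then 0.11.

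**Figure D3:**
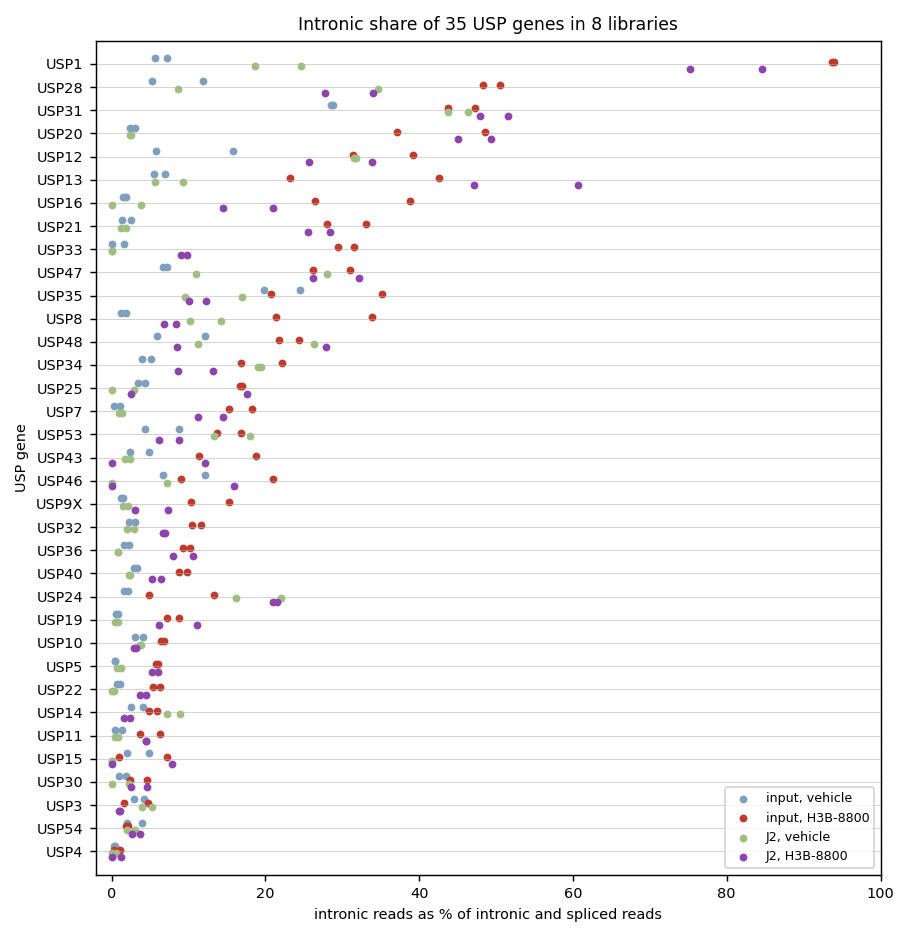
Intronic reads as a percent of intronic plus spliced reads (x axis) for 35 USP genes (y axis, ordered by the mean in the input with H3B-8800) in 8 libraries; each point is a library, coloured by group. USP1 stands apart at 93.9% and 93.7% in the input with H3B-8800, and USP4 and USP54 at the foot stay under 4% in all libraries.

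USP1 gave the largest change of the ratio. USP1 bound to WDR48 removes ubiquitin from PCNA and FANCD2 in DNA repair. Its intronic share was 7.14% and 5.59% with vehicle and 93.9% and 93.7% with H3B-8800. Nearly all reads of both treated libraries were thus intronic, and the log2 ratio rose by 7.65 (SE 0.36, adjusted p = 1.15e-04). The rise came from both sides. Intronic reads went from 14 and 8 to 620 and 637, and spliced reads from 3.79 and 2.65 RPM to 0.851 and 0.896 RPM (log2 -1.88, SE 0.35, adjusted p = 9.47e-04).

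The intronic reads of USP1 lay in 3 of its 8 introns, all between coding exons. Intron 5 (chr1:62443320-62444737, GRCh38, plus strand) went from 4 intronic and 50 spliced reads with vehicle to 317 and 9 with the drug, both input libraries summed. Intron 7 (chr1:62447512-62448464) went from 0 and 58 reads to 260 and 11. Intron 8 (chr1:62448667-62450245), the last, went from 14 and 44 to 666 and 12. Intron 6 between them held 2 intronic reads in each group, with 72 and 17 spliced reads, so neighbouring introns of 1 gene differed in intronic reads while spliced reads were lower with the drug at all 4. Another annotated exon of USP1 lies within intron 5, and its reads count as intronic. The changes in introns 5, 7 and 8 were 7.97 (SE 0.40), 9.24 (SE 0.38) and 7.26 (SE 0.77) on the log2 ratio scale, with an adjusted p of 2.61e-04 for intron 7 (limma). Introns were tested at a mean of at least 20 reads, intronic and spliced together. Introns 5 and 8 reached that mean only through their intronic reads with the drug, so their values are descriptions. The junctions of introns 5 to 8 are shown as the 30 bases before (lower case) and the 30 bases after (capitals) each exon junction of the GENCODE 29 transcript, to make clear which mRNA sequence each value stands for.
USP1 intron 5 junction: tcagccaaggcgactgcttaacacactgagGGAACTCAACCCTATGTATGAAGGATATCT
USP1 intron 6 junction: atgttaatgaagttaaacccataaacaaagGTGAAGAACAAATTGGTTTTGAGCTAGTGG
USP1 intron 7 junction: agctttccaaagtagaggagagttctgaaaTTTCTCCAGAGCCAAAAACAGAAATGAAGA
USP1 intron 8 junction: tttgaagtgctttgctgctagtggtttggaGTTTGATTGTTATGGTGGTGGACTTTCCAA

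**Figure D4:**
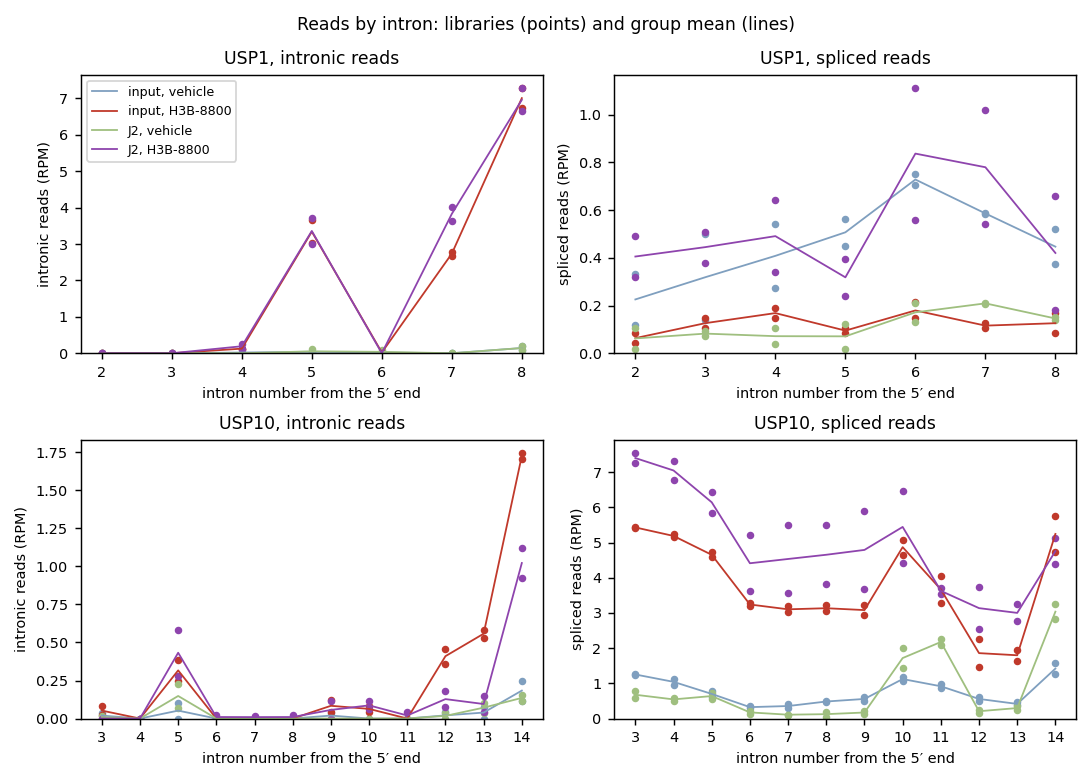
Intronic (left) and spliced (right) reads in RPM (y axes, from 0, own scale per panel) by intron number from the 5′ end (x axis) for USP1 and USP10; points are libraries and lines are group means. With H3B-8800, USP1 has intronic reads at introns 5, 7 and 8 and almost none at intron 6, and USP10 gains spliced reads at every listed intron and intronic reads mainly at introns 12 to 14.

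USP10 differed from USP1 in that its spliced reads rose while its intronic reads rose mainly at introns 12 to 14. At introns 6, 7 and 8, the input held 32, 35 and 48 spliced reads with vehicle and 308, 295 and 298 with H3B-8800, and no intronic read in either group. At its 3′ end, introns 12, 13 and 14 went from 2, 4 and 18 intronic reads to 39, 53 and 164, beside 177, 171 and 499 spliced reads with the drug. By the ratio per intron, USP10 had 0 of 12 tested introns called higher in the input, 5 lower and 7 not called. Its intronic share over the whole gene was 4.06% and 2.98% with vehicle and 6.81% and 6.44% with the drug. The libraries did not overlap, the log2 ratio rose by 0.90 (SE 0.26, adjusted p = 0.0232), and this call was lost without either drug library (adjusted p = 0.0995 without the first, 0.0782 without the second) or the second vehicle library (0.0986). Under median-of-ratios scaling of each kind of read the value turned to -0.80 (adjusted p = 0.0523).

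USP20, the partner of USP33 in beta-2 adrenergic receptor recycling, had an intronic share of 3.01% and 2.33% with vehicle and 48.5% and 37.1% with the drug (log2 ratio 4.71, SE 0.32, adjusted p = 1.31e-04). Its introns 10 to 15 carried most of it, and intron 14 (chr9:129869845-129870452), which holds another exon of USP20, went from 10 intronic and 55 spliced reads to 97 and 12. USP21, which acts on histone H2A and on RIPK1, had 2.48% and 1.39% against 33.1% and 28.03% (log2 ratio 4.45, SE 0.38, adjusted p = 2.23e-04). Its intron 5 (chr1:161162727-161162918, 192 bases) went from 3 intronic and 186 spliced reads to 71 and 51. In both genes the treated libraries lay far above the controls.

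USP7, USP16 and USP33 complete the 6 largest rises of the ratio. USP7 had an intronic share of 0.333% and 1.09% with vehicle and 18.2% and 15.2% with the drug (log2 ratio 4.69, SE 0.48, adjusted p = 4.06e-04). Intron 29 of 30 (chr16:8894641-8894783, 143 bases) held 33 of its 70 intronic reads with the drug, going from 3 intronic and 51 spliced reads to 33 and 14. USP16, a histone H2A deubiquitinase needed for mitosis, had 1.47% and 1.84% against 38.8% and 26.4% (log2 ratio 4.50, SE 0.70, adjusted p = 0.00215). Its intron 13 (chr21:29043600-29046666) went from 2 intronic and 36 spliced reads to 16 and 3. USP33 had 1.67% and 0% against 31.5% and 29.4% (log2 ratio 5.61, SE 0.72, adjusted p = 9.38e-04), but on 4 and 0 intronic reads with vehicle and 17 and 10 with the drug. Spliced reads of USP33 went from 476 to 61 over the same libraries, so both kinds of read moved. Its intron 15 (chr1:77721206-77721830) went from 0 intronic and 26 spliced reads to 12 and 8.

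Other introns stood out by the reads they gained. USP31 intron 13 of 15 (chr16:23073881-23079945), which holds another exon of its own gene, had 215 intronic and 97 spliced reads with vehicle and 885 and 24 with H3B-8800 (log2 ratio 3.998, SE 0.38, adjusted p = 5.27e-04), while its introns 9 to 11 gained spliced reads, 23 to 148 at intron 11. USP22 intron 12, its last (chr17:21003074-21004201), went from 2 intronic and 133 spliced reads to 182 and 221 (log2 ratio 5.01, SE 0.57, adjusted p = 9.62e-04). USP36 intron 19, also the last (chr17:78798552-78798907), went from 2 and 137 to 122 and 178 (log2 ratio 4.76, SE 0.72, adjusted p = 0.00263). USP22 and USP36 thus rose in spliced reads over the gene and gained intronic reads at the last intron. Whether whole introns stayed in their transcripts was not tested. These 3 introns were picked after their values were seen.

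Over the introns of the 35 genes, 218 of 701 had a mean of at least 20 reads and were tested. Intronic and spliced reads both counted toward that mean, so an intron could enter through its intronic reads with the drug. This favours introns that rose, among the USP genes and among all genes, and the counts of higher introns are descriptions. In the input 102 were higher and 13 lower, against 40.8% and 2.75% of 45220 introns in all. With H3B-8800, 21 of the 218 held at least 50% intronic reads, against 4 with vehicle. The 102 introns that rose had a median length of 484 bases, the 103 not called 1927 bases. The count at 50% and these lengths were not taken over all tested introns, so neither can be called particular to USP genes. Of the 13 that were lower, 12 held at most 3 intronic reads with vehicle and gained spliced reads, and 5 of the 13 belong to USP10. The exception was USP46 intron 7, with 6 intronic and 23 spliced reads against 0 and 89. USP21 had 10 of 11 tested introns called higher, USP19 15 of 17 and USP11 16 of 20, while USP54 had 0 of 11 and USP3 1 of 10. In J2 RNA 82 of the 218 were higher and 25 lower, against 39.8% and 6.42% of all introns. Gene by gene, then, the change ran from nearly every tested intron to none.

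The 3′ ends of introns, where SF3b acts at the branch point, could be read from GENCODE 29 transcripts (GRCh38) only where an annotated transcript of the gene covers them. Such were 73 introns of the kept USP genes, 32 of them tested and between coding exons. The 4 with the largest rise of the ratio in the input, among those with at least 10 intronic reads with the drug, and the 4 with the smallest value are given with the last 40 bases of the intron in lower case and the first 20 bases of the next exon in capitals.
USP21 intron 8: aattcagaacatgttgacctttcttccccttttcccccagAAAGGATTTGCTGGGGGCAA
USP21 intron 2: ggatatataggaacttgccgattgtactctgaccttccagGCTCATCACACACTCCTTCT
USP5 intron 14: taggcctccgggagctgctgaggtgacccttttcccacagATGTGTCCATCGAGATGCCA
USP22 intron 7: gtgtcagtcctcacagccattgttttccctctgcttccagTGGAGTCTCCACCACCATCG
USP10 intron 6: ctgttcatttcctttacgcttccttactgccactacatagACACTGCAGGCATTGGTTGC
USP10 intron 7: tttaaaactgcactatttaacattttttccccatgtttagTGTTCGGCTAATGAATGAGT
USP10 intron 8: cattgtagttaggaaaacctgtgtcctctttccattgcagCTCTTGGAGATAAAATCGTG
USP3 intron 1: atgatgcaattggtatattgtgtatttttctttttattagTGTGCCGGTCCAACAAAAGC

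USP21 intron 8 (chr1:161163982-161164163, plus strand) went from 2 intronic and 87 spliced reads to 36 and 30, and USP21 intron 2 (chr1:161161241-161162037, plus) from 0 and 130 to 20 and 53. USP5 intron 14 (chr12:6862559-6863185, plus) went from 4 and 200 to 12 and 61, and USP22 intron 7 (chr17:21011310-21012829, minus) from 9 and 971 to 59 and 1050. The introns of USP10 (intron 6 at chr16:84758808-84759362, intron 7 at chr16:84759473-84759890, intron 8 at chr16:84759947-84760171, plus strand) kept 0 intronic reads, and USP3 intron 1 (chr15:63504831-63532646, plus) went from 26 and 246 to 15 and 319, which was not called (adjusted p = 0.138). The 20 bases before the last 3 of the intron were 65% to 100% pyrimidine in the first set and 70% to 80% in the second. The letters CTNAC, on the sense strand and with overlaps allowed, occurred in the 40 bases of USP21 intron 2, USP22 intron 7 and USP10 intron 6, in 17.8% of the 73 readable USP introns and in 24.99% of 17234 readable introns of all genes. Neither feature parted the 4 introns of 1 set from those of the other.

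In J2 RNA the drug effect on spliced reads ran in the opposite direction for many members. With H3B-8800 20 of 35 USP genes were higher and 7 lower in J2 RNA, and 8 did not pass. Over all genes 34.6% were higher and 39.5% lower. The median log2 fold change was 0.48 over the USP genes and -0.03 over all genes. The count of higher members was 13 without the second J2 library with vehicle.

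USP12, a WDR48-bound relative of USP1, had the largest rise. Its J2 spliced reads were 0.245 and 0.263 RPM with vehicle and 2.08 and 2.94 RPM with the drug (log2 3.29, SE 0.32, adjusted p = 1.08e-05). In the input it had 1.67 and 1.92 RPM against 1.26 and 1.73 RPM, where the groups overlapped and the test was not passed (log2 -0.27, SE 0.27, adjusted p = 0.401). USP10 rose in J2 RNA as in the input, from 10.04 and 9.72 RPM to 52.96 and 65.0 RPM (log2 2.58, SE 0.10, adjusted p = 3.75e-08). USP34, a very large enzyme of the Wnt pathway, rose from 1.21 and 1.46 RPM to 4.62 and 8.85 RPM (log2 2.34, SE 0.28, adjusted p = 4.76e-05). Its input had gone down, from 10.7 and 12.0 RPM to 3.06 and 2.98 RPM (log2 -1.91, SE 0.26, adjusted p = 1.20e-04).

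USP28, a stabiliser of MYC and of p53 signalling with 53BP1, had 0.321 and 0.561 RPM in J2 RNA with vehicle and 1.72 and 2.38 RPM with the drug (log2 2.20, SE 0.32, adjusted p = 1.49e-04). USP53, a member found at tight junctions, had 3.26 and 3.09 RPM against 10.02 and 18.8 RPM (log2 2.18, SE 0.25, adjusted p = 3.40e-05). USP1 had 0.660 and 0.965 RPM against 2.56 and 4.83 RPM (log2 2.18, SE 0.35, adjusted p = 3.09e-04). The treated libraries lay above the controls in all 3 genes, and the second treated library was the higher in each.

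The 6 largest falls in J2 RNA belonged to USP43, USP21, USP11, USP19, USP5 and USP20, and these also fell in the input. USP43 had 2.11 and 2.12 RPM with vehicle and 0.340 and 0.547 RPM with the drug (log2 -2.24, SE 0.29, adjusted p = 8.06e-05), and was kept only through its libraries with vehicle. USP21 had 44.1 and 42.1 RPM against 9.46 and 10.8 RPM (log2 -2.09, SE 0.10, adjusted p = 8.93e-08). USP11, a partner of BRCA2 in DNA repair, had 45.2 and 46.2 RPM against 13.5 and 12.6 RPM (log2 -1.81, SE 0.07, adjusted p = 2.72e-08). None of these groups overlapped. USP19 went from 19.2 and 19.0 RPM to 7.28 and 6.21 RPM (log2 -1.50), USP5 from 20.3 and 20.7 RPM to 9 and 8.30 RPM (log2 -1.25), and USP20 from 12.2 and 12.1 RPM to 6.38 and 6.19 RPM (log2 -0.95). In these 3 genes, too, the treated libraries lay below the controls. USP40 was the only other member called lower (log2 -0.82).

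In J2 RNA the ratio of intronic to spliced reads rose for 14 of 35 USP genes and fell for 4, with 17 not called. Over all genes 56.3% rose and 4.96% fell. The median log2 change was 1.23 over the USP genes and 1.64 over all genes. Intronic reads alone were higher for 22 USP genes and lower for 1, against 57.3% and 3.40% of all genes, and 11 to 13 were higher with TMM or median-of-ratios factors or with an added filter on intronic reads, and 5 with DESeq2. Both counts of the ratio depend on the settings, since median-of-ratios scaling gave 8 higher and 11 lower.

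USP20 led the rises in J2 RNA, with an intronic share of 2.41% and 2.55% against 49.4% and 45.1% (log2 ratio 5.06, SE 0.32, adjusted p = 7.81e-05). Its intron 14 held 10 intronic and 46 spliced reads with vehicle and 232 and 15 with the drug. USP22 had 0% and 0.352% against 4.47% and 3.74% (log2 ratio 5.004, SE 0.94, adjusted p = 0.00438), on 0 and 8 intronic reads with vehicle and 114 and 100 with the drug. USP21 had 1.89% and 1.23% against 28.4% and 25.6% (log2 ratio 4.54, SE 0.38, adjusted p = 1.63e-04). In all 3 genes both treated libraries lay above both controls.

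USP1 in J2 RNA went from 18.6% and 24.7% intronic to 84.6% and 75.2% (log2 ratio 3.80, SE 0.36, adjusted p = 2.52e-04), with 347, 395 and 716 intronic reads at introns 5, 7 and 8. USP13, a relative of USP5 that acts on Beclin 1, went from 9.29% and 5.69% to 47.1% and 60.7% (log2 ratio 3.76, SE 0.52, adjusted p = 0.00121). Its intron 12 (chr3:179742351-179745042) went from 9 intronic and 29 spliced reads to 129 and 4. USP19 went from 0.780% and 0.460% to 6.19% and 11.1% (log2 ratio 3.74, SE 0.43, adjusted p = 5.27e-04). Intron 25 of USP19 (chr3:49110363-49110443, 81 bases) went from 0 intronic and 204 spliced reads to 15 and 54. In these genes, too, the groups did not overlap.

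The ratio fell in J2 RNA for USP3, USP14, USP53 and USP34, whose spliced reads all rose there. The share of USP3 was 4% and 5.20% with vehicle and 1.13% and 0.976% with the drug (log2 ratio -2.07, SE 0.53, adjusted p = 0.0154). That of USP14 was 8.86% and 7.26% against 1.58% and 2.34% (log2 ratio -2.06, SE 0.34, adjusted p = 0.00254). That of USP53 was 18.0% and 13.3% against 8.74% and 6.11% (log2 ratio -1.23, SE 0.44, adjusted p = 0.0499), and that of USP34 was 19.0% and 19.4% against 13.2% and 8.58% (log2 ratio -1.03, SE 0.35, adjusted p = 0.0412). The groups did not overlap, but of USP3, the call was lost without the second vehicle library (adjusted p = 0.0703) or either drug library of J2 (0.0501 and 0.0669). The call of USP34 was lost without each of the 8 libraries but the first J2 library with the drug, with adjusted p of up to 0.188, and that of USP53 without each J2 library or input library with the drug, with adjusted p of up to 0.200.

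J2 recovery was read as spliced reads in J2 RNA over those in the input of the same treatment. With vehicle 23 of 35 USP genes were lower in J2 RNA and 2 higher. Over all genes 44.3% were lower and 16.4% higher. The median was -0.60 over the USP genes and -0.28 over all. The comparison with vehicle uses the control libraries of both drug comparisons, so these are not independent of each other. Median-of-ratios factors, which bring the median of all genes to 0.10, called 9 members higher and 17 lower.

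USP21 was recovered best with vehicle, with 16.4 and 16.7 RPM in the input and 44.1 and 42.1 RPM in J2 RNA (log2 1.38, SE 0.10, adjusted p = 4.69e-06). USP3 was the other member higher, with 9.96 and 7.96 RPM against 12.7 and 11.2 RPM (log2 0.41, SE 0.13, adjusted p = 0.0227), a call lost without the second input library (adjusted p = 0.180) or the first J2 library (0.151). USP34 was recovered least, with 10.7 and 12.0 RPM against 1.21 and 1.46 RPM (log2 -3.09, SE 0.28, adjusted p = 2.10e-05). USP33 had 4.92 and 4.71 RPM against 0.509 and 0.649 RPM (log2 -3.05, SE 0.36, adjusted p = 8.94e-05), and USP12 had 1.67 and 1.92 RPM against 0.245 and 0.263 RPM (log2 -2.81, SE 0.33, adjusted p = 8.28e-05). In these 3 genes every J2 library lay far below every input library. USP33 would not have been kept without the input with vehicle, so its value is a description.

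With H3B-8800, 15 USP genes were higher in J2 RNA than in the input and 6 lower, against 28.2% and 27.4% of all genes. The median was 0.38 over the USP genes and 0.02 over all. Without the first input library with the drug 6 members were higher. USP1 led, with 0.851 and 0.896 RPM in the input and 2.56 and 4.83 RPM in J2 RNA (log2 2.08, SE 0.35, adjusted p = 7.77e-04). USP34 had 3.06 and 2.98 RPM against 4.62 and 8.85 RPM (log2 1.16, SE 0.26, adjusted p = 0.00442). USP28 had 0.915 and 0.979 RPM against 1.72 and 2.38 RPM (log2 1.11, SE 0.29, adjusted p = 0.00981), a call lost without the first input library with the drug (adjusted p = 0.0582). The groups did not overlap in these genes.

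USP4 was lowest in J2 RNA with the drug, with 5.70 and 7.19 RPM in the input and 2.62 and 3.15 RPM in J2 RNA (log2 -1.16, SE 0.17, adjusted p = 2.85e-04). USP54 had 16.4 and 18.5 RPM against 9.38 and 9.92 RPM (log2 -0.85, SE 0.10, adjusted p = 5.59e-05). USP15, which with its relative USP4 acts on TGF-beta receptor signalling, had 2.21 and 2.15 RPM against 1.28 and 1.32 RPM (log2 -0.74, SE 0.24, adjusted p = 0.0255); without 1 input library, of either treatment, the adjusted p of USP15 was 0.0520 to 0.0866. Intronic reads gave 3 members higher and 4 lower in J2 RNA with the drug, against 12.3% and 12.5% of all genes.

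Recovery also differed along a transcript. With vehicle, USP10 gave 188, 239 and 335 spliced J2 reads at introns 10, 11 and 14 and 19, 12, 14 and 19 at introns 6 to 9. The input had 111, 91 and 141 reads at the former and 32, 35, 48 and 55 at the latter. The log2 ratio of J2 over input thus ran from -1.86 at intron 8 to 1.23 at intron 11 within the gene. With H3B-8800 the J2 reads at introns 6 to 9 were 457, 470, 482 and 497.

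The 2 drug effects were also compared directly, by subtracting the effect in the input from that in J2 RNA. This difference was higher for 19 USP genes and lower for 2, with 14 not called. Over all genes 35.8% were higher and 13.8% lower. The median was 0.89 over the USP genes and 0.28 over all, and median-of-ratios scaling called 18 higher and 7 lower. USP34 led with 4.25 (SE 0.39, adjusted p = 8.19e-05), from -1.91 in the input and 2.34 in J2 RNA. USP33 had 4.18 (SE 0.52, adjusted p = 2.59e-04), from -2.90 and 1.28, and USP1 had 4.06 (SE 0.50, adjusted p = 2.52e-04), from -1.88 and 2.18. These 3 genes fell in the input and rose in J2 RNA, where they had started from a far lower level. USP33 and USP1 reached 1 RPM only in libraries of the 2 groups that raise this difference, so their values are descriptions. USP54 and USP21 were the 2 members with a lower value, -0.77 (SE 0.13, adjusted p = 0.00140) and -0.58 (SE 0.14, adjusted p = 0.00790). For the intronic to spliced ratio the difference was lower for 3 members and higher for none, against 0.603% and 0.260% of all genes. They were USP8, an endosomal enzyme that works on the EGF receptor, with -4.89 (SE 0.54, adjusted p = 0.0484), USP1 with -3.85 (SE 0.51, adjusted p = 0.0484) and USP34 with -3.36 (SE 0.49, adjusted p = 0.0491). Leaving out any 1 of the 8 libraries ended all 3 calls, and USP8, which had 3 and 2 intronic reads in the input with vehicle and 15 and 22 with the drug, gave -2.46 over introns free of exons of other genes.

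**Figure D5:**
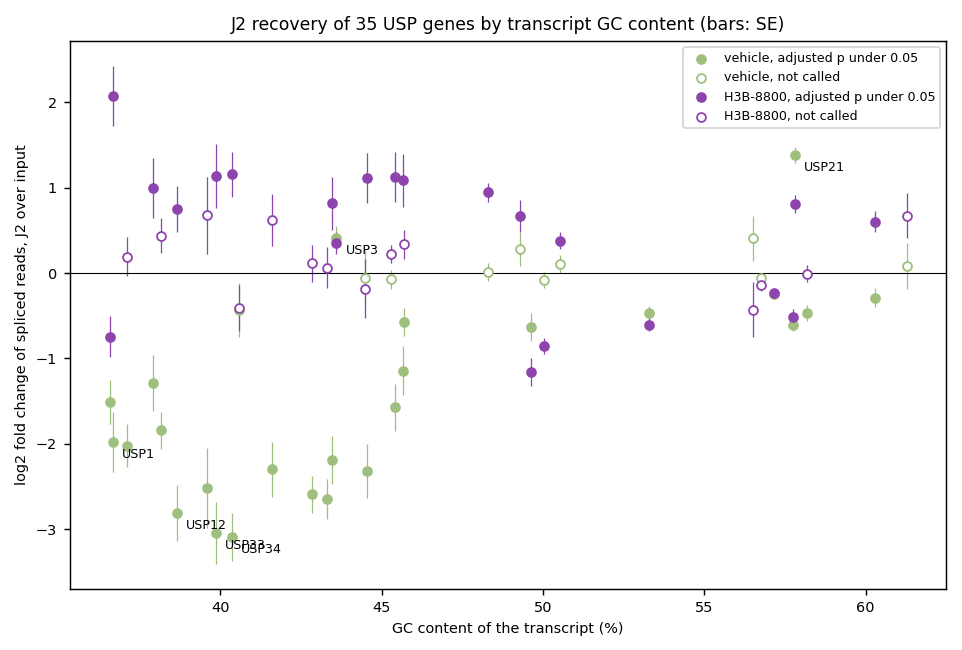
Log2 fold change of spliced reads in J2 RNA over input (y axis) against the GC content of the GENCODE 29 transcript (x axis) for 35 USP genes, with vehicle (green) and with H3B-8800 (purple); bars are standard errors and filled points passed an adjusted p of 0.05. With vehicle 14 of the 17 genes under 45% GC were called lower, down to -3.09 for USP34, and with H3B-8800 1 of them was.

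Base composition moved with J2 recovery. The transcripts of the 35 USP genes had a median GC content of 45.3% (36.6% to 61.3%), against 50.3% over 8450 tested genes with a transcript. With vehicle, J2 recovery and GC content had a Spearman correlation of 0.66 across the 35 genes and 0.48 across all genes, which share libraries and are not independent. The drug effect in J2 RNA had -0.66 and -0.45, and that in the input 0.14 and -0.15. Of the 17 USP genes under 45% GC, 14 were lower and 1 higher in J2 RNA with vehicle, and with the drug in J2 RNA 13 were higher and none lower. Among all tested genes under 45% GC, 68.6% were lower in J2 RNA with vehicle and 57.4% were higher with the drug. Of the 11 USP genes at 50% GC and over, 4 were higher and 6 lower with the drug in J2 RNA, against 21.8% and 56.3% of all tested genes in that class. Within genes it was described for introns with at least 20 spliced reads in the input with vehicle, the denominator of the recovery, in members with at least 8 such introns. Over these 395 introns of 23 members, the GC content of the 100 bases on each side of a junction and its J2 recovery with vehicle had a median Spearman correlation of -0.10, positive in 9 of the 23. Single genes ran from -0.88 in USP36 to 0.61 in USP3. The part of base composition in the drug effects was not tested.

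Relatives did not always move together. USP12 and USP46 share the activator WDR48 with USP1. USP46, kept only through its libraries with the drug, had log2 values of 1.36 in the input and 1.38 in J2 RNA. USP12 passed the test in J2 RNA and not in the input, with a difference between the drug effects of 3.56 (SE 0.42, adjusted p = 2.26e-04) against 0.02 (SE 0.39, adjusted p = 0.972) for USP46. USP20 and USP33 both fell in the input (log2 -1.84 and -2.90), and in J2 RNA USP20 fell by 0.95 while USP33 rose by 1.28 on the log2 scale. USP25 and USP28 fell in the input (log2 -2.77 and -1.23), and in J2 RNA USP28 rose by 2.20 while USP25 had 0.23 (SE 0.29, adjusted p = 0.493). USP7 and USP47 fell in the input (log2 -1.75 and -0.93), with 0.48 (SE 0.29, adjusted p = 0.163) and 1.99 (SE 0.33, adjusted p = 3.75e-04) in J2 RNA. The J2 value of USP7 was 0.94 (adjusted p = 3.02e-05) without the first J2 library with the drug, and DESeq2 called it at 0.53 (adjusted p = 0.0432). USP5 fell in both (log2 -1.34 and -1.25) and USP13 had -0.69 (SE 0.33, adjusted p = 0.0927) and -0.81 (SE 0.34, adjusted p = 0.0505). USP4 and USP15 did not pass in the input (log2 0.30, SE 0.16, and 0.14, SE 0.24), and in J2 RNA USP15 rose by 0.90 while USP4 had -0.22 (SE 0.17). Differences between relatives were not tested, and reads that fit both members of a pair could not be told apart. USP27X, the relative of USP22, was not analysed here.

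Other genes of the ubiquitin system were followed in the same way. Of 17 tested partners and substrates of USPs, 5 rose and 5 fell in spliced reads, with a median of -0.12, and in J2 RNA 8 rose and 2 fell. The shares over all genes were 21.8% higher and 48.7% lower for the input, against 34.6% and 39.5% for J2 RNA. STAM, the endosomal partner of USP8, rose (log2 1.72 in the input, 2.47 in J2 RNA), as did MDM4 (1.21 and 1.61). FANCI, which is ubiquitinated with FANCD2 and released by USP1, fell in the input (log2 -1.90, SE 0.29, adjusted p = 2.68e-04) and had 0.22 in J2 RNA. The ratio rose for 10 of the 17 in the input and for 7 in J2 RNA, against 57.6% and 56.3% of all genes. The proteasome receptor ADRM1 had 4.21 and 5.79. Of 25 tested deubiquitinases of other families, 8 rose and 9 fell in the input, with a median of 0.01, and 11 rose and 7 fell in J2 RNA. Their ratio rose for 11 in the input and fell for none. UBA1 and UBA6, the E1 enzymes that activate ubiquitin, both fell in spliced reads of the input. The lists were small, and a difference between them and the USP genes was not tested.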

How the data were processed

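The libraries were polyadenylated and made with a stranded kit, per the labels' protocols, and aligned with HISAT2 2.0.4, with the builds mm10 and hg38 named, per the submitters' processing notes. The counting program and its strand setting are not given in the sources used here, so a gene and its antisense partner could not be told apart. The deposited files hold, for 142224 introns of 15902 genes, a whole-number count taken as intronic reads, a second count whose excess over the first was taken as spliced reads, and an RPKM. These meanings were inferred from the values, since the files carry no header. The authors' RPKM gave the depth of each library, 47000000 to 57000000 reads, which was used as library size. The 18 introns that lack 2 values were left out. A listed interval is 1 base wider than the intron on each side, and coordinates given here are those of the intron in GENCODE 29.

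Reads were summed per gene, and genes with at least 1 spliced RPM in at least 2 libraries were tested. Spliced and intronic counts were tested with edgeR 4.0.16 (quasi-likelihood), and log2 of intronic + 1 over spliced + 1 reads with limma 3.58.1, per gene and, at a mean of at least 20 reads, for 45220 introns. All 8 libraries entered 1 fit of 4 group means without a replicate block. Benjamini-Hochberg adjustment ran over all genes or introns of a comparison, and the threshold was 0.05. The p-values rest on 1 estimate of the replicate spread that all 4 groups share, each group with 2 biological replicates. They do not measure the spread within the compared groups alone. The code was tested on simulated data. Alternatives were TMM and median-of-ratios scaling, DESeq2 1.42.0, other filters and pseudocounts, and each library left out.

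Library values are given for up to 6 members each way per drug comparison and 3 for the others, with at least 2 RPM in 1 group and 1 sign over all library pairs, and for USP1, USP7, USP10 and pairs of relatives. Members and lists were chosen with earlier results of these data known. Some genes of the fixed lists are not reported here.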

Additional observations from a re-analysis of the deposited data

Results flagged for a closer look

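For 21 of the 35 USP genes the drug effect on spliced reads differed between J2 RNA and input by the test of that difference (edgeR's quasi-likelihood test, adjusted p under 0.05). Of these, 19 were higher and 2 lower, against 35.8% and 13.8% of all tested genes. On the log2 scale, with the input effect subtracted from the J2 effect, USP34 had 4.25, USP33 4.18, USP1 4.06, USP12 3.56, USP28 3.43, USP8 3.20 and USP25 3. All of these but USP12 were called lower in the input. The values of USP33, USP1 and USP28 are descriptions, since these genes were kept only through the input with vehicle and J2 RNA with the drug. USP47 had 2.92, USP24 2.71, USP9X 2.70, USP48 2.69, USP16 2.28, USP14 2.28, USP7 2.23 and USP53 2.21. USP40 had 0.93, USP32 0.91, USP20 0.89 and USP19 0.46, and only USP21 with -0.58 and USP54 with -0.77 lay below 0 among the 21. For the intronic to spliced ratio, limma gave a difference of -4.89 for USP8, -3.85 for USP1 and -3.36 for USP34.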

How the results depend on the processing

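Under the alternatives, 1063 values of single USP genes kept direction and call, 83 kept direction and were no longer called, 8 became called and 1 reversed, the USP10 ratio in the input, at -0.80 under median-of-ratios scaling. The counts below were those that moved by over 1.5 times; the cause was not tested except where fewer introns or genes entered. Spliced reads: J2 over input with vehicle, higher (2), became 7 with TMM, 9 with median-of-ratios and 7 with DESeq2, and the difference between drug effects, lower (2), 4, 7 and 6. Intronic reads in the input, higher (20), became 8, 8 and 7 and 11 with an intronic filter, and lower (0) 2 with TMM and 3 with median-of-ratios. Intronic reads in J2 RNA, higher (22), became 13, 11, 5 and 11, and lower (1) 3, 5, 3 and 0. Intronic reads of J2 over input with drug, higher (3), became 5 with TMM and 5 with median-of-ratios, and lower (4) 1 with DESeq2. The ratio in the input, higher (25), became 11 with the filter and 10 with median-of-ratios, and lower (0) 2 with the latter. The ratio in J2 RNA, higher (14), became 7 and 8, and lower (4) 1, 11 and, without a gene filter, 2. The ratio difference, lower (3), became 0 with a pseudocount of 0.5, 9 with 5, 0 without a gene filter, 0 over introns free of other exons and 5 with a variance trend over intronic reads, chosen after seeing the data. Introns in the input, higher (102), became 229 at a mean of 5 reads and 53 at 50, and lower (13) 7 at 50 and 8 with a pseudocount of 0.5. Introns in J2 RNA, higher (82), became 52 at 50 reads, and lower (25) 65 at 5 and 9 at 50.

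Leaving out each library in turn gave these ranges. Spliced reads in the input were higher for 5 to 8 members and lower for 19 to 22, in J2 RNA higher for 13 to 24 and lower for 7 to 8. J2 over input with vehicle was higher for 1 to 2 and lower for 18 to 23, with drug higher for 6 to 22 and lower for 5 to 8, and the difference higher for 18 to 20 and lower for 2 to 4. Intronic reads of J2 over input with drug were higher for 1 to 4 and lower for 3 to 4. The ratio in the input was higher for 20 to 25, in J2 RNA higher for 13 to 15 and lower for 1 to 3, and its difference lower for 0 to 0. Introns in the input were higher for 64 to 102 and lower for 6 to 12, in J2 RNA higher for 54 to 82 and lower for 15 to 25. Where 1 library was left, it was assumed to vary like the other groups.

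The deviations of same-numbered libraries from their group means correlated at -0.08 to 0.10 between groups. Whether same-numbered libraries were paired cannot be told from this, and the main fits used no pairing. With replicate number as a block the ratio difference was lower for 0 members, and the other counts moved by less than 1.5 times.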
